A study of Mus musculus with 3 samples.

Results

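Cycling retinal endothelial cells (ECs) are the dividing cells of the growing retinal vessels. They were picked out of single-cell RNA sequencing of retinal cells of C57BL/6 mice at postnatal day 6, enriched with beads against CD31 and CD11b. A cell was an EC when *Pecam1*, *Cdh5*, *Egfl7*, *Esam*, *Tie1*, *Eng*, *Ecscr* and *Flt1* summed to at least 10 per 10000 UMIs (a UMI marks 1 captured transcript), at least 3 of these genes were detected, and *C1qa*, *Cx3cr1* and *Csf1r* of microglia stayed under 5 per 10000. It was cycling when 8 further genes, *Top2a*, *Mki67*, *Cenpf*, *Nusap1*, *Birc5*, *Prc1*, *Ube2c* and *Cdk1*, summed to at least 5 per 10000 with at least 3 detected. Of 33528 barcodes, 29084 passed a minimum of 1000 UMIs and a mitochondrial share of 15% or less, 3201 of these were ECs, and 768 ECs were cycling. There was 1 library per genotype: wild type (WT), mice labelled *Tspan12* knockout (*Tspan12* KO), a deletion not limited to ECs, and *Ctnnb1* cKO, in which floxed *Ctnnb1* was deleted in ECs by tamoxifen-induced *Pdgfb*-iCreER. Each library came from pooled mice, and WT animals came from other litters than the mutants. With 1 library per genotype no difference between genotypes can be tested, the genotype and the library cannot be told apart, and every interval below is a 95% interval that covers counting error only.

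Cells in division copy their DNA in S phase, with helicases, polymerases and newly made histones, and then pass through G2 and mitosis, in which cyclin B and Cdk1 drive condensation and motor proteins build the spindle. In the postnatal retina, vessels grow from the optic nerve to the edge behind tip cells, and the ECs that divide lie mostly behind that front, in the plexus and its veins. Norrin, its co-receptor Tspan12 and beta-catenin, encoded by *Ctnnb1*, carry the signal that gives retinal ECs their blood-retina barrier.

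The libraries are given in the order WT, *Tspan12* KO, *Ctnnb1* cKO wherever 3 values stand together. The 768 cells were 225 of 596, 132 of 401 and 411 of 2204 ECs. Their median depth was 27800, 31785 and 6879 UMIs, against 12435, 11048 and 3703 UMIs in the other ECs. Cycling ECs thus held 2.24, 2.88 and 1.86 times as many UMIs as the other ECs of their library. The libraries shared 21 to 37 cell barcodes pairwise, and none of the shared barcodes was a cycling EC in both. All 12 endothelial markers, the 8 of the rule with *Cldn5*, *Kdr*, *Emcn* and *Ramp2*, were counted in the cycling ECs of every library, with medians of 96.2, 89.3 and 83.6 per 10000 UMIs. Markers of another cell type reached 10 per 10000 in 30, 44 and 149 members, or 13.3%, 33.3% and 36.3%. Among other ECs the shares were higher in each library, at 28.0%, 42.0% and 47.9%. In *Tspan12* KO the 8 rod markers passed that limit in 20 members, and the 10 mural markers and the 8 neuronal markers in 12 each. In *Ctnnb1* cKO the 12 microglial markers did so in 80 members and the 6 Muller glia markers in 76. Their level was higher in the typical *Ctnnb1* cKO member too, with medians of 1.45, 1.06 and 7.17 per 10000 for the microglial and 2.13, 1.63 and 6.30 for the Muller glia markers, so leaving out the cells past the limit does not remove these transcripts. In that library *Apoe* was at 559 CPM (UMIs of a gene per 1000000 UMIs of the class of cells) and *C1qb* at 158 CPM. The 6 Muller glia markers summed to 6.85 per 10000 there, mostly *Apoe*, and *Aqp4* was not counted. Which cells these transcripts came from was not tested. Haemoglobin and other erythrocyte transcripts came to 47.5 per 10000 UMIs over all *Tspan12* KO members but had a median of 0.426 per cell. The part of these transcripts in the results below was not tested, and the shares and ratios were also computed without such cells.

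The targeted genes were counted in each library. *Tspan12* (ENSMUSG00000029669) was at 84.9, 80.4 and 39.4 CPM in cycling ECs, and *Ctnnb1* (ENSMUSG00000006932) at 486, 545 and 385 CPM. *Tspan12* was not lower in its own knockout beyond counting error, with a log2 ratio to WT of −0.08 (−0.25 to 0.10). The reads come from the 3′ end of transcripts and the deleted parts of both genes are not given in the sources used here, so these counts do not check the labels.

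Promoters are shown because 6 of the 8 rule genes share short motifs that the rule did not use. The cell-cycle homology region (CHR, TTTGAA) and the CCAAT box are known from promoters of genes used in G2 and mitosis, and E2F motifs from promoters of genes used in S phase. Printed are 110 bases before the start of 5 genes of mitosis, *Top2a* (topoisomerase that untangles chromosomes), *Cdk1*, *Ube2c* (which tags mitotic cyclins for destruction), *Kif11* (a spindle motor) and *Nusap1* (a spindle protein), and of 2 of replication, *Mcm6* (helicase subunit) and *Hells* (chromatin remodeller). The sequences are those of RefSeq on GRCm38.p6, read along each gene's strand, and capitals mark a CHR, CCAAT or E2F match on either strand. They lie at chr11:99024190-99024299 (minus), chr10:69352913-69353022 (minus), chr2:164769819-164769928 (plus), chr19:37376272-37376381 (plus), chr2:119618188-119618297 (plus), chr1:128359706-128359815 (minus) and chr19:38930880-38930989 (plus).
Top2a: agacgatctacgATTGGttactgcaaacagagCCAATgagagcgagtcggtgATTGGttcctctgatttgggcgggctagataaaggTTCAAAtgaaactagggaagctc
Cdk1: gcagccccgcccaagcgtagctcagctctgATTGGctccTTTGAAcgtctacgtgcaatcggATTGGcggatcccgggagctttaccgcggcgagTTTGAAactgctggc
Ube2c: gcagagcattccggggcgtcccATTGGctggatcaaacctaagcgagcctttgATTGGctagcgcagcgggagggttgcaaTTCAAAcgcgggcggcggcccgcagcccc
Kif11: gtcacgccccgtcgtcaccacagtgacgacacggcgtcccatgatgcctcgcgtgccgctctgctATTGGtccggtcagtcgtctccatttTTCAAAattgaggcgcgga
Nusap1: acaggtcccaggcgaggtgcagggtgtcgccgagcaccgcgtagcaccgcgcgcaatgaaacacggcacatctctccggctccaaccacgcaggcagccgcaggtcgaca
Mcm6: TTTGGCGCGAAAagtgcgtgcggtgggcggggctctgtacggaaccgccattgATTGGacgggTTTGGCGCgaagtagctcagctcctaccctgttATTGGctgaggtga
Hells: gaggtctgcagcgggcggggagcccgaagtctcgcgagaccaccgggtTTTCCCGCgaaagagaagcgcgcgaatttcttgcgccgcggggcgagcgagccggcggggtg

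In the full RefSeq windows, which run from 250 bases before to 50 after each start, a CHR motif was found in 6 of the 8 rule genes and a CCAAT box in the same number. CHR was also found in 37 of the 48 other genes of mitosis that had a window, or 77.1%, against 4 of 30 replication genes, or 13.3%, and 14.1% of the 7315 tested genes with a window. CCAAT set these groups less apart, with 33 of the 48 mitosis genes, or 68.8%, and 17 of the 30 replication genes, or 56.7%. It was in 43.3% of the tested genes. The E2F forms TTTGGCGC, TTTCCCGC, TTTGCCGC and TTTCGCGC were in 13 of the 30 replication genes, 4 of the 48 mitosis genes and 5.10% of the tested genes. Over all 27025 genes with a window, CHR was in 20.2%, CCAAT in 41.1% and the E2F forms in 2.60%. Both strands were searched, and the motifs could overlap, as 2 E2F forms do in the *Mcm6* stretch. *Nusap1* and *Birc5* hold none of the 3 motifs in the window. A match is a description of letters and was not tested as a binding site.

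The 8 rule genes chose the cells, so their levels are given without a test. In cycling ECs *Top2a* (ENSMUSG00000020914) was counted at 372, 261 and 557 CPM, with 20.04, 22.1 and 28.6 CPM left in the other ECs. *Mki67*, the source of the Ki-67 antigen, was at 227, 167 and 342 CPM, *Cenpf* of the kinetochore at 184, 141 and 334 CPM, and *Nusap1* at 127, 83.9 and 253 CPM. These 3 genes and *Top2a* were lowest in *Tspan12* KO and highest in *Ctnnb1* cKO. *Prc1*, which bundles the microtubules between the separating chromosomes, had the same order at 165, 138 and 273 CPM. *Birc5*, a subunit of the chromosomal passenger complex, was highest in WT at 313 CPM and lowest in *Ctnnb1* cKO at 195 CPM. *Ube2c* at 355, 221 and 246 CPM and *Cdk1* at 315, 241 and 247 CPM were also highest in WT. *Nusap1* made up 6.19% of all rule-gene UMIs in WT and 10.3% in *Ctnnb1* cKO, while *Birc5* made up 15.2% and 7.97%, so the mix of the 8 genes differed between libraries as well as their sum.

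**Figure D1:**
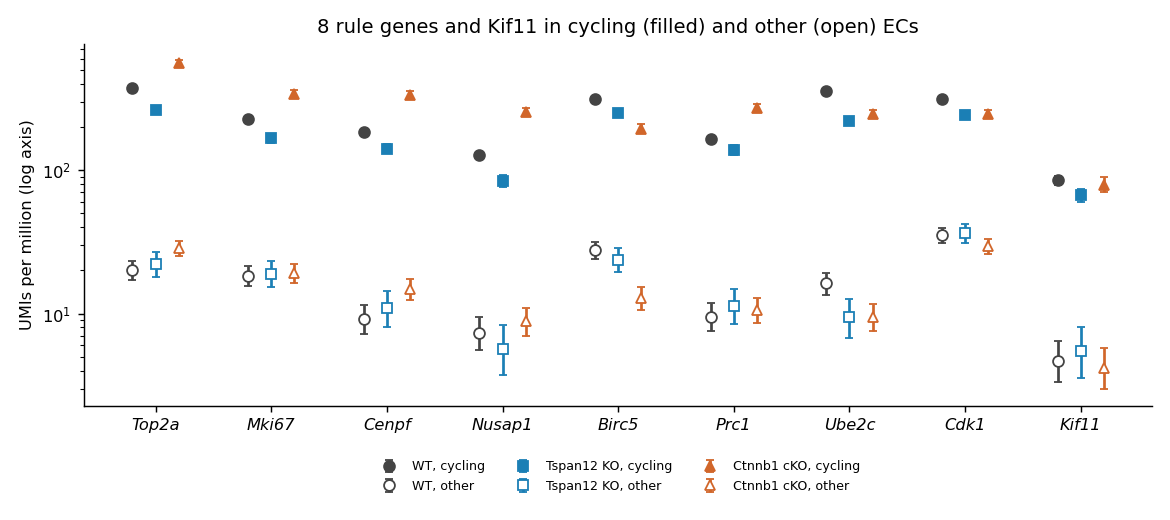
CPM (log axis) of the 8 rule genes and *Kif11* in cycling ECs (filled) and other ECs (open) of the 3 libraries, with exact Poisson intervals as bars. Cycling ECs of *Ctnnb1* cKO had the highest *Top2a*, *Mki67*, *Cenpf*, *Nusap1* and *Prc1*, and those of WT the highest *Birc5*, *Ube2c* and *Cdk1*. *Kif11* lay between 66.5 and 84.9 CPM in cycling ECs.

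Cells lay on both sides of the limit of 5 per 10000. The lowest members stood at 5.0005, 5.12 and 5.03 per 10000. Among ECs outside with at least 3 of the genes detected, the highest stood at 4.94, 4.82 and 4.93. Between 5 and 7 per 10000 there were 12, 21 and 39 members, or 5.33%, 15.9% and 9.49%, and between 3 and 5 there were 35, 33 and 170 other ECs. A limit of 10 per 10000 would have kept 191, 89 and 334 members. The median member was at 19.0, 12.8 and 22.5 per 10000 and the highest at 85.6, 64.6 and 129. All 8 genes were detected in 152, 70 and 107 members, and exactly 3 in 8, 11 and 48. A further 10, 20 and 152 ECs, of 596, 401 and 2204, passed the level but showed fewer than 3 of the genes. The part of depth in these counts was not tested.

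The share of ECs that were cycling was 37.8% (33.8 to 41.8%), 32.9% (28.3 to 37.8%) and 18.6% (17.04 to 20.3%). Intervals of shares are exact Clopper-Pearson intervals. The rule needs 3 detected genes, so the share moves with depth. With every cell reduced to 2000 randomly drawn UMIs, called thinning below, the shares were 21.3% (18.1 to 24.9%), 16.0% (12.5 to 20.2%) and 13.5% (11.9 to 15.1%), with 10, 27 and 383 shallower ECs left out. The order was kept and the gap between WT and *Ctnnb1* cKO narrowed to 21.3% against 13.5%. At 1000 UMIs the shares were 12.4%, 6.73% and 7.26%, which puts *Tspan12* KO below *Ctnnb1* cKO, and at 4000 UMIs they were 34.4%, 29.8% and 24.5%. Rods, which have left the cell cycle, met the same cycling rule in 1.004%, 1.59% and 3.73% of cells at 2000 UMIs and in 2.30%, 4.37% and 10.2% at their own depth, with median depths of 3845, 5023 and 4263 UMIs.

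Within bins of depth between 4000 and 32000 UMIs the libraries lay closer together. Among ECs of 4000 to 8000 UMIs, 25% of 104, 27.1% of 70 and 23.1% of 666 cells were cycling. From 8000 to 16000 UMIs the shares were 32.4%, 27.6% and 32.1%, and from 16000 to 32000 UMIs 35.2%, 33.3% and 45.8%. The intervals of the 3 libraries overlapped in each of these bins. Above 32000 UMIs 104 of 178 WT and 66 of 120 *Tspan12* KO ECs were cycling, but only 9 *Ctnnb1* cKO ECs reached that depth. From 2000 to 4000 UMIs the shares were 16.3%, 7.14% and 9.76%, of 43, 42 and 676 ECs. Below 2000 UMIs 0 of 10, 0 of 27 and 21 of 383 ECs were cycling. More UMIs per cell go with cycling in every library, so the depth of a cell and its place in the cycle cannot be told apart in these bins.

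**Figure D2:**
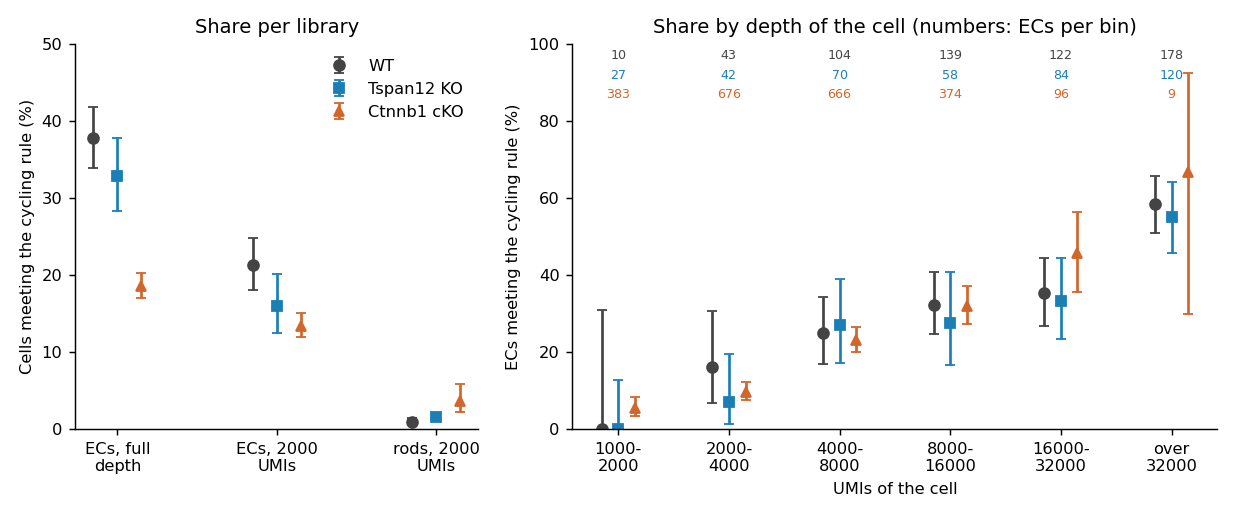
Left, share of cells that met the cycling rule in percent, for ECs at full depth, ECs thinned to 2000 UMIs and rods thinned to 2000 UMIs. Right, the share of ECs by the depth of the cell, with the number of ECs per bin above. Bars are exact Clopper-Pearson intervals. The full-depth shares of 37.8%, 32.9% and 18.6% stand further apart than those within some bins, such as 32.4%, 27.6% and 32.1% between 8000 and 16000 UMIs.

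To see which phases the members were in, transcripts of 3 gene lists were counted after thinning to 2000 UMIs. The lists held 40 replication genes, 52 mitosis genes and 39 replication-dependent histone genes. The 8 rule genes, *Lmnb1*, *Kpna2*, *Tubb4b* and *Bub3* were left out of the mitosis genes. Most members showed both programmes. At least 3 replication and 3 mitosis UMIs were found in 71.6% (65.2 to 77.4%), 53.03% (44.2 to 61.8%) and 57.2% (52.1 to 62.1%) of members. Replication alone was found in 7.11%, 18.2% and 10%, and mitosis alone in 18.7%, 23.5% and 26.9%. Histone transcripts reached 3 UMIs in 36.4% (30.2 to 43.1%), 22.7% (15.9 to 30.8%) and 47.4% (42.4 to 52.5%). With or without the other programme, replication reached 3 UMIs in 78.7%, 71.2% and 67.2% of members. Mitosis did so in 90.2%, 76.5% and 84.1%. In other ECs these shares were 21.9%, 26.4% and 15.9% for replication and 13.02%, 15.3% and 8.60% for mitosis. For histones they were 3.60%, 4.55% and 3.35%. Rods gave 22.2%, 23.7% and 21.0% for replication and 13.5%, 15.3% and 13.1% for mitosis, so the intervals of the other ECs held the rod values for WT as well as *Tspan12* KO. Those of *Ctnnb1* cKO lay below the rods for both programmes, at 15.9% (14.01 to 17.9%) and 8.60% (7.19 to 10.2%). *Tspan12* KO members had the lowest share with both programmes, but the interval overlapped that of *Ctnnb1* cKO. For histone transcripts *Tspan12* KO had the lowest and *Ctnnb1* cKO the highest share, and the intervals of both overlapped that of WT. Mean rule-gene UMIs after thinning were 4.91, 3.11 and 5.66 per member, and their part in these shares was not tested.

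**Figure D3:**
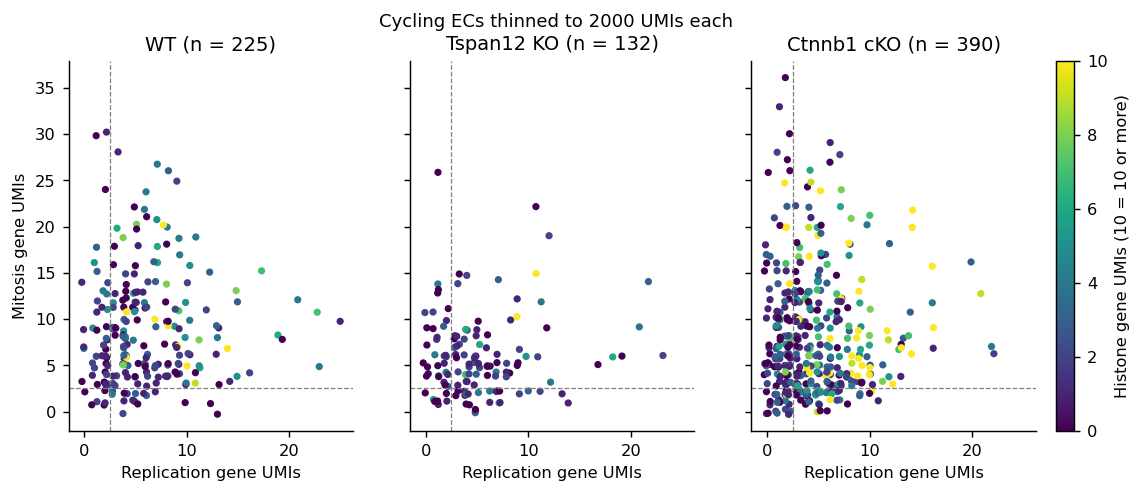
Each point is a cycling EC thinned to 2000 UMIs, with its UMIs of 40 replication genes on the x axis, its UMIs of mitosis genes on the y axis and its histone UMIs as colour. Points are spread by a small random amount, and dashed lines mark 3 UMIs. Members above both lines make up 71.6%, 53.03% and 57.2% of the 3 libraries, and yellow cells with 10 or more histone UMIs are seen mostly in *Ctnnb1* cKO.

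Cycling ECs were next set against the other ECs of the same library. Because the members were chosen by cell-cycle genes counted in these same cells, the ratios describe the members and are no test. CPM were summed over cells, and 5 CPM were added to each value before the log2 ratio for ranks, medians and counts. A gene needed a mean of 10 CPM over both classes of the 3 libraries, so a gene low in a class could pass only through the other class. Of 9134 genes that passed, 180 or 1.97% were at least 2-fold higher in cycling ECs in all 3 libraries and 15 or 0.164% at least 2-fold lower. In single libraries 2.95%, 2.23% and 2.57% were 2-fold higher and 0.766%, 1.01% and 0.821% lower.

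Genes of DNA replication were higher as a group. Of 36 counted replication genes, 33, 24 and 29 were at least 2-fold higher in cycling ECs and 0 were 2-fold lower, with median log2 ratios of 1.47, 1.17 and 1.33 against −0.08, −0.08 and −0.05 over all genes. *Rrm2*, which makes deoxynucleotides, was at 91.3, 60.2 and 43.6 CPM in cycling against 6.80, 7.42 and 4.41 CPM in other ECs. *Tk1* (thymidine kinase) was at 89.5, 65.9 and 87.2 CPM, and *Clspn*, an adaptor of the replication checkpoint, at 55.9, 52.3 and 70.0 CPM. At the other end *Mcm6*, whose promoter is printed above, was at 73.7, 60.0 and 80.3 CPM against 46.4, 39.3 and 47.1 CPM, so it fell short of 2-fold in each library.

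Histones of the replication-dependent clusters were also higher. *H1f5*, a linker histone, was at 340, 164 and 136 CPM in cycling against 9.16, 8.95 and 5.96 CPM in other ECs, log2 ratios of 5.21, 4.19 and 4.51. *H2ac8* was at 57.8, 36.7 and 336 CPM and *H2ac20* at 34.9, 32.7 and 52.8 CPM in cycling ECs. Only 12 of the 39 histone genes passed the level filter. Most such messages lack a poly(A) tail, by which these libraries catch transcripts. Of these 12, 10, 9 and 10 were 2-fold higher in cycling ECs. The exceptions included *H1f2*, at 77.7, 58.6 and 58.0 CPM in cycling and 63.2, 36.9 and 57.0 CPM in other ECs, and *H2bc4*, at 87.5, 51.4 and 39.4 against 71.0, 40.6 and 37.6 CPM. Histone genes of these clusters are near-identical in their coding parts, so how the authors' counting divided reads among them is uncertain.

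Cyclins and their partners were mixed, with 15, 11 and 12 of 30 counted genes at least 2-fold higher and 2, 1 and 1 at least 2-fold lower. *Ccna2* (cyclin A) was at 95.8, 77.2 and 68.0 CPM against 4.58, 2.84 and 4.41 CPM in other ECs. *Ccnb1* (cyclin B) was at 73.2, 70.8 and 76.4 against 6.56, 6.11 and 5.63 CPM, and *Ccnf* at 25.7, 23.5 and 28.3 against 1.73, 2.40 and 2.54 CPM. *Ccne1* of the G1 to S step was lower in level, at 21.9, 20.6 and 19.996 CPM, and *Ccne2* stood at 22.2, 16.5 and 47.2 CPM. The A, B and E cyclins were all higher in cycling ECs of every library. The D cyclins, which answer to growth signals before S phase, differed among themselves. *Ccnd2* was lower in cycling ECs of each library, at 26.6, 82.7 and 86.4 CPM against 66.6, 176 and 151 CPM. *Ccnd1* was higher in each, at 269, 401 and 358 CPM in cycling and 193, 329 and 249 CPM in other ECs, and *Ccnd3* had no shared direction, at 63.7, 66.3 and 73.9 against 55.8, 67.7 and 86.5 CPM. *Cdk4* was higher, at 289, 305 and 174 against 166, 199 and 95.2 CPM. The inhibitor *Cdkn1c* was lower, at 17.9, 14.1 and 25.3 against 59.3, 27.3 and 59.4 CPM, whereas *Cdkn2c* was higher, at 37.3, 38.6 and 27.8 against 8.66, 11.1 and 6.18 CPM. *Rb1*, the brake on E2F, was at 42.6, 42.5 and 30.3 against 63.5, 62.7 and 53.4 CPM, and *E2f8* at 21.0, 17.1 and 20.8 against 1.61, 1.97 and 1.77 CPM.

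The lists of mitosis had the highest medians after the rule genes themselves. Of 11 counted mitotic kinesins, the motor proteins of the spindle, 11, 11 and 10 were at least 2-fold higher, with medians of 2.73, 2.17 and 2.72. *Kif11* (ENSMUSG00000012443), which pushes the spindle poles apart, was at 84.9 (79.3 to 90.8), 66.5 (59.5 to 74.2) and 79.2 (70.2 to 88.9) CPM in cycling against 4.70, 5.46 and 4.19 CPM in other ECs. At 2000 UMIs a *Kif11* UMI was found in 15.1%, 12.1% and 16.9% of members, in 0.554%, 2.07% and 0.978% of other ECs and in 1.15%, 2.10% and 1.24% of rods. *Kif2c*, which takes microtubules apart at kinetochores, was at 34.5, 34.3 and 56.7 CPM against 0.866, 1.53 and 1.88 CPM, and *Cenpe*, which carries chromosomes to the equator, at 146, 101 and 157 against 12.2, 11.8 and 8.16 CPM. Of 32 kinetochore, checkpoint and spindle genes 29, 27 and 32 were 2-fold higher, led by *Aurkb*, the kinase of the chromosomal passenger complex, at 79.0, 56.3 and 70.0 CPM against 2.97, 4.59 and 4.41 CPM. *Plk1* was at 54.1, 47.0 and 63.3 CPM and *Tpx2* at 171, 134 and 185 CPM. All 12 cytokinesis genes in WT and *Ctnnb1* cKO and 11 in *Tspan12* KO were 2-fold higher. *Anln* of the contractile ring was at 61.2, 44.5 and 81.4 CPM and *Cep55* of the midbody at 59.0, 37.8 and 65.3 CPM, against under 5 CPM in other ECs.

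Outside the lists, the 10 genes with the highest ratios included *Pclaf*, *Pimreg*, *Pbk*, *Cdca3*, *Diaph3*, *Melk*, *Cks2*, *Sgo2a* and *Mxd3*. *Pclaf*, which binds the sliding clamp PCNA, was at 324, 281 and 248 CPM against 28.3, 34.3 and 23.9 CPM. *Cks2*, a subunit of Cdk complexes, was at 296, 278 and 124 CPM against 49.98, 55.0 and 18.5 CPM, so it was lower in both classes of *Ctnnb1* cKO ECs. *Sgo2a*, which protects cohesion at centromeres, was at 51.1, 34.5 and 46.1 CPM, against at most 3.71 CPM in other ECs. *Mxd3*, a partner of Max, was at 38.2, 32.3 and 39.2 CPM.

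Genes of growth were higher by less. All 14 counted genes of growth and ribosome biogenesis were above 0 in every library, with medians of 0.59, 0.41 and 0.59. *Srm*, which makes spermidine, was at 77.5, 81.9 and 84.7 CPM against 35.0, 38.9 and 43.3 CPM, and *Odc1*, the step before it, at 380, 388 and 275 against 239, 187 and 177 CPM. *Gapdh* of glycolysis was at 1635.5, 1158 and 1075 CPM in cycling and 1001, 768 and 707 CPM in other ECs. Of 13 glycolysis genes 10, 12 and 11 were above 0, and none was 2-fold higher.

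Genes of arteries were low in cycling ECs. None of the 13 counted arterial genes was above 0 in any library, the medians were −1.04, −0.84 and −1.10, and 7, 4 and 8 were 2-fold lower. *Bmx*, a kinase of arterial ECs, was at 1.78, 0.817 and 4.999 CPM in cycling against 18.9, 7.42 and 39.7 CPM in other ECs. *Bmx* thus passed the level filter only through the other ECs. *Cxcl12* was at 17.6, 5.31 and 51.1 against 104, 66.4 and 116 CPM, and *Mgp*, a matrix protein of arterial walls, at 8.12, 54.7 and 58.6 against 62.2, 122 and 376 CPM. *Gja4*, a gap junction protein, was at 118, 52.9 and 61.9 against 247, 188 and 132 CPM. Of 13 venous genes 0 were 2-fold lower in WT and *Tspan12* KO and 3 in *Ctnnb1* cKO, and the medians were −0.26, −0.06 and −0.30. *Nr2f2*, the transcription factor of veins, was at 89.3, 91.0 and 41.9 CPM in cycling and 92.9, 89.96 and 42.6 CPM in other ECs.

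The genes with the lowest ratios outside the lists were *Tmem100*, *Nebl*, *Slc6a6*, *Stmn2*, *Lama3*, *Mfap2*, *Pcsk5*, *Fbln2*, *Ltbp4* and *Aqp1*. *Slc6a6*, the taurine transporter, was the most abundant, at 145, 161 and 78.9 CPM in cycling against 456, 478 and 233 CPM in other ECs. *Nebl* was at 10.5, 1.63 and 7.50 against 112, 27.5 and 31.3 CPM. *Mfap2*, *Fbln2* and *Ltbp4* encode parts of elastic microfibrils and *Lama3* a laminin chain. *Mfap2* was at 38.4, 51.8 and 38.0 against 104, 116 and 106 CPM, and *Fbln2* at 1.88, 7.14 and 17.2 against 19.7, 19.9 and 90.8 CPM. *Stmn2* is also a marker of neurons, and the 8 neuronal markers reached 10 per 10000 in 2.67%, 9.09% and 2.68% of cycling against 11.6%, 13.01% and 6.30% of other ECs.

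Genes that mark rest were also lower. The 12 quiescence genes had medians of −0.55, −0.46 and −0.60, and 13 p53 targets −0.34, −0.28 and −0.50. *Btg2*, an antiproliferative gene that p53 induces, was at 384, 254 and 277 CPM in cycling against 714, 478 and 438 CPM in other ECs, and *Klf4* at 193, 139 and 130 against 361, 202 and 221 CPM. *Txnip* was at 25.2, 31.2 and 63.6 against 41.8, 55.2 and 166 CPM. Tip cell genes had no shared direction, with medians of −0.11, 0.28 and −0.42. *Cxcr4* and *Unc5b*, guidance receptors of tip cells, were lower in cycling ECs of each library, at 16.0, 29.6 and 27.8 against 33.4, 59.4 and 52.9 CPM and at 27.5, 31.2 and 75.5 against 70.9, 73.4 and 120 CPM. *Apln*, the ligand that tip cells secrete, was higher, at 190, 232 and 139 against 121, 111 and 88.7 CPM. VEGF, Notch and BMP receptors and targets had medians of −0.41, −0.46 and −0.40, with *Dll4* at 79.4, 73.9 and 63.3 against 114, 109 and 119 CPM.

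Barrier and Wnt genes differed between the classes in a way that varied by library. The 17 barrier genes had medians of −0.49 and −0.54 in WT and *Tspan12* KO and −0.11 in *Ctnnb1* cKO. *Abcb1a*, the efflux pump P-glycoprotein, was lower in all 3, at 122, 108 and 175 against 220, 232 and 278 CPM, and *Slco1c1*, which carries thyroid hormone, was at 18.8, 6.53 and 15.3 against 47.5, 23.6 and 22.1 CPM. The 16 counted genes of the Norrin and Wnt pathway had medians of −0.33, −0.60 and −0.19. The Wnt feedback gene *Apcdd1* was at 120, 108 and 107 CPM in cycling and 200, 271 and 94.999 CPM in other ECs, so its level was near the same in the members of all libraries and differed in the other ECs. *Sox17* was at 115, 96.8 and 86.1 against 202, 178 and 142 CPM. *Dkk2*, a Wnt inhibitor, was low in the members at 1.48, 5.92 and 9.998 CPM against 18.6, 17.03 and 57.8 CPM.

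**Figure D4:**
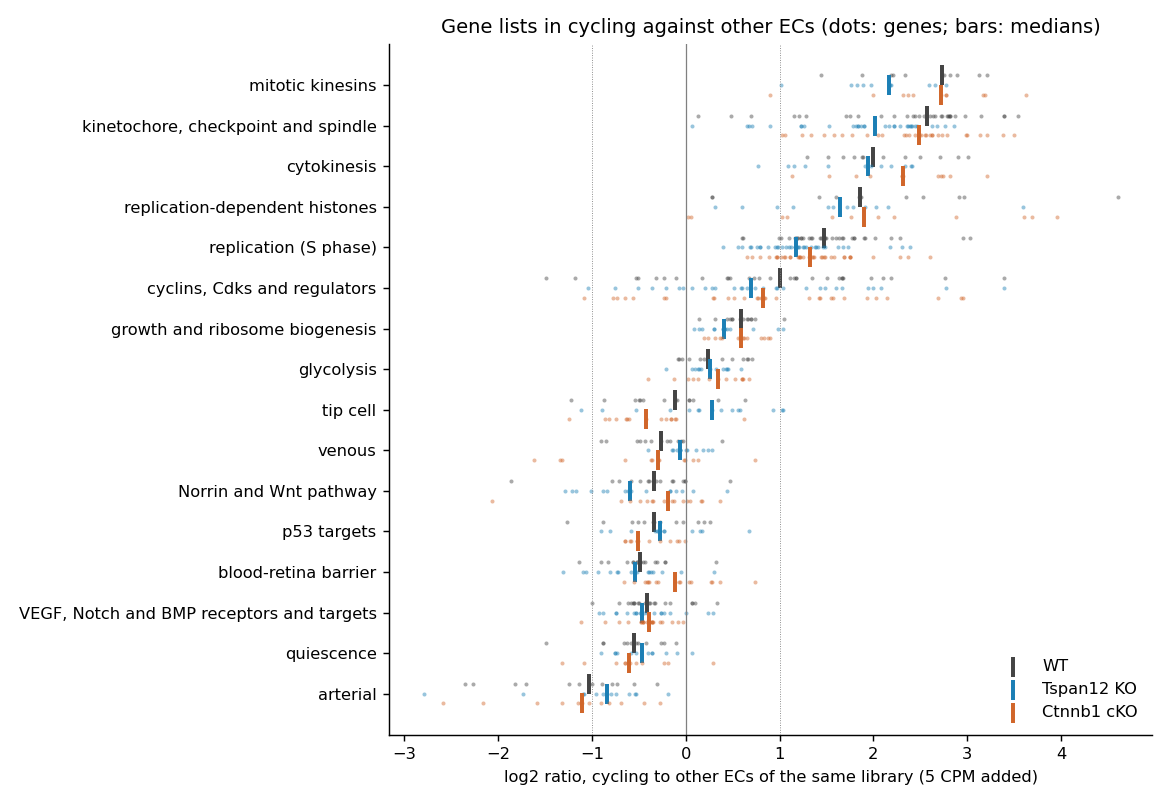
Log2 ratio of cycling to other ECs of the same library (x axis, 5 CPM added) for 16 gene lists; dots are genes and bars are list medians, coloured by library. Lists of mitosis lie furthest to the right, with kinesins at 2.73, 2.17 and 2.72, and arterial genes furthest to the left at −1.04, −0.84 and −1.10.

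The same cycling rule also found 467 cells above the microglial limit and 1633 cells that passed neither the endothelial nor the microglial gate. *Kif11* was lower in cycling ECs than in the cycling cells with microglial genes, at 84.9, 66.5 and 79.2 CPM against 215, 174 and 137 CPM. The third group was at 163, 77.1 and 77.3 CPM, near the cycling ECs in *Ctnnb1* cKO. *Top2a* and *Mki67* of the rule were also lower in cycling ECs than in the microglial group, *Top2a* at 372, 261 and 557 against 629, 498 and 816 CPM. *Cdk6*, the kinase partner of D cyclins, was at 9.90, 24.5 and 11.7 CPM in cycling ECs against 149, 113 and 133 CPM in the microglial group and 124, 126 and 116 CPM in the third group. Its log2 ratio to the microglial group was −3.91 (−4.39 to −3.42), −2.20 (−2.63 to −1.76) and −3.51 (−4.01 to −3.03). *Cdk4* was at 289, 305 and 174 CPM in cycling ECs against 162, 188 and 127 CPM in the microglial group and 306, 333 and 164 CPM in the third. *Ccnd2* went the other way, with 269, 405 and 311 UMIs in cycling ECs and 0, 1 and 24 UMIs in the microglial group, where 0 UMIs in WT allow up to 7.58 CPM. *Ccnd1* in cycling ECs, at 269, 401 and 358 CPM, lay between the microglial group, at 200, 165 and 228 CPM, and the third group, at 1568, 1371 and 1122 CPM. These groups were set by the same 8 genes and differ in depth and number, with 38, 62 and 367 cells in the microglial group.

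Whether dividing ECs differ without the pathway was described by setting cycling ECs of each knockout library against those of WT. Both ratios use the same WT library, so they are not independent, and no p-value can be had. Of 8973 genes with a mean of 10 CPM, 99 or 1.1% were at least 2-fold higher and 83 or 0.925% at least 2-fold lower in *Tspan12* KO, and 284 or 3.17% and 465 or 5.18% in *Ctnnb1* cKO. The medians of all genes were 0.02 and −0.10, or −0.01 and −0.05 with TMM scaling. In cells of 2000 to 10000 UMIs only, which leaves 51, 24 and 273 members, the counts grew to 1103 and 951 in *Tspan12* KO and 590 and 1175 in *Ctnnb1* cKO.

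Cell-cycle genes differed by less than 2-fold for the most part. Among the 13 kinesins the medians were −0.45 in *Tspan12* KO and −0.02 in *Ctnnb1* cKO, with 1 and 0 genes 2-fold lower and none 2-fold higher. The 8 rule genes, which chose the members, themselves had medians of −0.41 and 0.58. *Kif11* had log2 ratios to WT of −0.35 (−0.54 to −0.17) and −0.10 (−0.30 to 0.09). Per UMI of the rule genes, the *Kif11* ratios were 0.10 (−0.09 to 0.29) and −0.35 (−0.55 to −0.16), so their order depended on the scaling. In cells of 2000 to 10000 UMIs the *Tspan12* KO ratio of *Kif11* CPM, with 5 CPM added, turned to 0.14. *Kif20b*, a kinesin of cytokinesis, was at 66.8, 30.4 and 46.9 CPM, and *Kif18a*, which dampens chromosome movements, at 36.1, 23.3 and 16.1 CPM. Kinetochore, checkpoint and spindle genes had medians of −0.32 and −0.03, and cytokinesis genes −0.36 and 0.24, the last turning to −0.25 in cells of 2000 to 10000 UMIs. *Mki67*, a rule gene whose level is a description and no test, was 0.59 (0.49 to 0.69) above WT in *Ctnnb1* cKO. With 5 CPM added its ratio was −0.058 in cells of 2000 to 10000 UMIs. *Bub1* and *Knl1* of the checkpoint were lower in both, at 48.4, 26.3 and 25.8 CPM and 81.1, 48.2 and 40.0 CPM. *Pttg1* (securin) was higher in *Ctnnb1* cKO, at 40.0, 46.3 and 89.2 CPM.

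Of the 39 replication genes, 0 differed 2-fold in *Tspan12* KO and 2 were 2-fold lower in *Ctnnb1* cKO, with medians of −0.17 and −0.26. *Rrm2* had ratios of −0.60 (−0.79 to −0.41) and −1.07 (−1.32 to −0.82), and *Mcm7* of 0.26 and 0.25. Histones were mixed. *H2ac8* was at 57.8, 36.7 and 336 CPM, a ratio of 2.54 (2.40 to 2.68) in *Ctnnb1* cKO. *H1f5* went from 340 CPM to 164 and 136 CPM and *H1f1* from 33.2 to 14.3 and 14.2 CPM. Of 20 histone genes counted here 5 were 2-fold higher and 2 lower in *Ctnnb1* cKO, with a median of 0.45. *H2ac8* was also at 22.9 CPM in other ECs of *Ctnnb1* cKO against 3.34 CPM in WT.

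Among regulators, *Ccnd2* (ENSMUSG00000000184) was higher in both knockout libraries, with ratios of 1.63 (1.41 to 1.86) and 1.70 (1.46 to 1.94) in cycling and 1.40 and 1.18 in other ECs. *Ccnd1* had ratios of 0.58 (0.49 to 0.66) and 0.41 (0.31 to 0.51). *Cdkn1a*, the p53-induced inhibitor p21, was at 116, 49.0 and 300 CPM, and its other-EC values of 167, 46.5 and 474 CPM had the same order. *Ccne2* was 1.09 (0.79 to 1.38) above WT in *Ctnnb1* cKO and −0.42 (−0.81 to −0.05) in *Tspan12* KO. *Cdk6* was at 9.90, 24.5 and 11.7 CPM, and at 7.83, 12.2 and 7.15 CPM without the cells that carried another type's markers. Of the p53 targets, *Phlda3* was at 10.2, 22.05 and 38.0 CPM and *Zmat3* at 7.92, 14.9 and 26.4 CPM, and 3 of 11 were 2-fold higher in *Ctnnb1* cKO and 0 in *Tspan12* KO.

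Barrier genes were lower in the members of both knockout libraries. Of 16 counted, 7 were at least 2-fold lower in each, 1 was 2-fold higher in *Tspan12* KO and 0 in *Ctnnb1* cKO, with medians of −0.41 and −0.76 against 0.02 and −0.10 over all genes. *Slc38a5* (ENSMUSG00000031170), a glutamine transporter, was at 261 CPM in WT and 32.3 and 59.7 CPM in the knockouts, ratios of −3.02 (−3.26 to −2.79) and −2.13 (−2.34 to −1.93). *Tfrc*, the transferrin receptor, was at 122, 37.6 and 23.9 CPM, and *Itm2a* at 592, 254 and 150 CPM. *Lsr* of tricellular junctions was at 117, 80.0 and 52.2 CPM. *Plvap*, a protein of leaky vessels, was at 117, 340 and 219 CPM. *Slc2a1*, the glucose transporter, was at 540, 494 and 762 CPM, and *Abcb1a* at 122, 108 and 175 CPM, so both were above WT in *Ctnnb1* cKO. In the other ECs of these libraries the barrier medians were −0.42 and −1.15, and the difference between the classes was not tested.

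Wnt pathway genes of the members had medians of 0.13 and 0.10 over 15 genes. *Axin2*, the feedback gene, was at 12.6, 16.1 and 33.9 CPM, and *Nkd1* at 26.6, 62.7 and 41.9 CPM. *Lef1*, which pairs with beta-catenin on DNA, was at 204, 236 and 306 CPM. *Apcdd1* had ratios of −0.16 (−0.31 to −0.01) and −0.16 (−0.33 to 0.01), and *Znrf3*, which removes Wnt receptors, of −0.39 and −0.79. *Eng*, an endothelial gene of the rule, was higher, at 297, 428 and 540 CPM, and *Id3*, a BMP target, at 552, 865 and 834 CPM. *Id1*, another BMP target, was at 536, 515 and 334 CPM, and the medians of the 19 counted VEGF, Notch and BMP genes were 0.11 and 0.02. Arterial genes had medians of 0.01 and −0.40, and the second turned to 0.037 as a mean over cells and to 0.15 in cells of 2000 to 10000 UMIs.

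The 8 genes furthest above WT in both libraries included *Aqp1*, *Six3os1*, *Mgp*, *Slco1a4*, *Six3*, *Pde6b* and *Itih5*. *Aqp1*, a water channel, was at 0.990, 24.7 and 93.0 CPM in cycling ECs and at 7.05, 117 and 222 CPM in other ECs, and it was lower in the cycling class of each library. *Six3*, a transcription factor of the eye field, was at 22.3, 84.5 and 268 CPM and *Six3os1* beside it at 15.3, 95.7 and 166 CPM. *Pde6b* is a rod gene, and the summed 8 rod markers were at 2.28, 7.99 and 3.40 per 10000 UMIs in the members. Without the cells that carried another type's markers, *Pde6b* was at 5.14, 9.78 and 13.5 CPM in place of 6.43, 29.6 and 34.7 CPM. *Mgp* in *Tspan12* KO was at 10.1 CPM in place of 54.7 CPM, while *Aqp1*, at 1.01, 31.2 and 105 CPM, and *Six3*, at 16.3, 66.0 and 282 CPM, stayed above WT. That selection itself uses rod markers, of which *Pde6b* is not a member. The 8 furthest below WT included *Slc38a5*, *Cxcl1*, *Egfl8*, *Angptl4* and *B230369F24Rik*. *Egfl8* was at 76.6, 19.0 and 9.44 CPM in cycling and 179, 44.3 and 18.3 CPM in other ECs. *Cxcl1*, a chemokine, was at 43.9, 5.31 and 6.94 CPM, and *Angptl4*, an inhibitor of lipoprotein lipase, at 42.6, 10.4 and 8.61 CPM in cycling ECs.

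**Figure D5:**
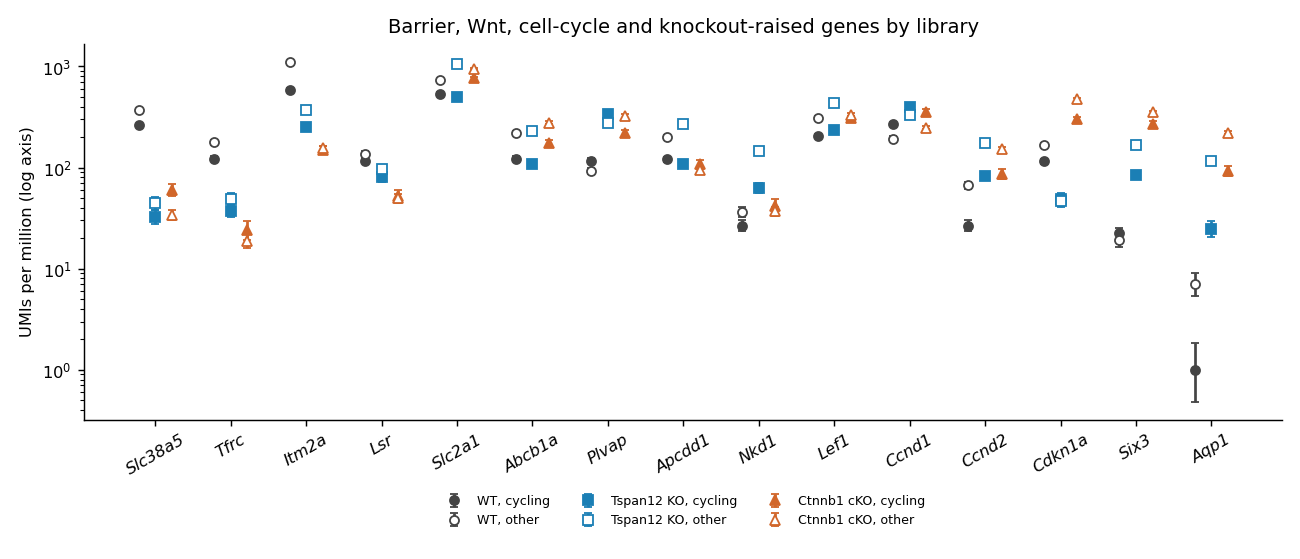
CPM (log axis) of barrier, Wnt, cell-cycle and knockout-raised genes in cycling ECs (filled) and other ECs (open) of the 3 libraries, with exact Poisson intervals as bars. *Slc38a5*, *Tfrc* and *Itm2a* lay below WT in both knockout libraries, at 32.3 and 59.7 CPM against 261 CPM for *Slc38a5*, and *Ccnd2*, *Six3* and *Aqp1* lay above WT in both classes of cells.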

How the data were processed

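Single-cell libraries of retinal cells from postnatal day 6 were made with the 10x Genomics 3′ chemistry, 1 per genotype. The deposited values are raw UMI counts per gene and cell, made by the authors with Cell Ranger (version 8.0.1 in the file headers). The submitters' processing notes name GRCm39 while the study's methods name another build, so the build is unsettled and no coordinates of the counts are used. The lowest barcode held 500 UMIs. Library totals were 92684519, 137114957 and 37008362 UMIs for WT, *Tspan12* KO and *Ctnnb1* cKO.

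Members and gene lists were chosen with earlier results of these data known. Counts were summed over cells of a class and scaled to CPM. Ratios have exact conditional binomial intervals, CPM exact Poisson intervals and shares Clopper-Pearson intervals, all at 95% and for counting error only. A ratio with an interval is without a pseudocount; 5 CPM was added for ranks, list medians and counts past 2-fold, among genes with a mean of at least 10 CPM. No p-value was computed, since cells are not replicates. The text names the rule genes, *Kif11*, *Tspan12*, *Ctnnb1*, the cyclins and Cdk inhibitors, up to 3 genes per list and direction, the 10 genes outside lists with the highest and lowest cycling ratios, and the 8 highest and lowest in both knockout libraries. A few genes that this rule picks are not reported here. Doublets were kept, and removal of those marked by Scrublet (scanpy 1.11.5, at 0.8% per 1000 cells) was an alternative. Other alternatives were thinning, stricter limits, a pseudocount of 1 CPM, TMM scaling (edgeR 4.0.16), means over cells, a window of depth, and leaving out cells with markers of another type. The calculation was tested on simulated data. Python 3.11.15, numpy 2.4.6, pandas 2.3.3, scipy 1.17.1, matplotlib 3.10.9 and R 4.3.3 were used.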

Additional observations from a re-analysis of the deposited data

Results flagged for a closer look

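For 3 genes the libraries differed by at least 2-fold in opposite directions, and these differences were not tested. *Igfbp3*, which binds insulin-like growth factors, had a log2 ratio of cycling to other ECs, with 5 CPM added, of 1.04 for *Tspan12* KO but −1.25 for *Ctnnb1* cKO. Its levels were 275, 525 and 439 CPM in cycling and 261, 253 and 1050 CPM in other ECs. *Tspan12* KO thus lay above WT in cycling ECs only. *Ctnnb1* cKO lay above WT in both classes, and further in the other ECs. *Cxcl12*, a chemokine of arteries, had ratios to WT in cycling ECs of −1.13 for *Tspan12* KO but 1.31 for *Ctnnb1* cKO. *Cdkn1a*, the inhibitor p21, had ratios to WT of −1.16 and 1.34.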

How the results depend on the processing

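The share of ECs that were cycling (37.8, 32.9 and 18.6% in WT, *Tspan12* KO and *Ctnnb1* cKO) depended most on depth. It was 21.3, 16.0 and 13.5% at 2000 UMIs, 12.4, 6.73 and 7.26% at 1000 UMIs and 24.5% in *Ctnnb1* cKO at 4000 UMIs. With rule genes at 10 per 10000 it was 32.0, 22.2 and 15.2%, and without cells with markers of another type 42.2% in WT and 21.9% in *Ctnnb1* cKO. In 2 alternatives chosen after seeing the data, thinning to 2000 UMIs gave 20.9, 17.04 and 13.6% without doublets and 23.4, 18.3 and 13.9% without cells with other markers. The 15 genes 2-fold lower in cycling ECs became 7 with TMM scaling, 26 with a pseudocount of 1 CPM and 6 with rule genes at 10 per 10000. They became 19 to 30 with a library left out, 25 without WT and 30 without *Ctnnb1* cKO. The 180 higher became 183 to 216. With a library left out, a count of genes past 2-fold in all remaining libraries can only stay the same or grow. The 99 genes 2-fold higher in *Tspan12* KO became 169 with a pseudocount of 1 CPM, 155 as means over cells, 49 without doublets and 42 without cells with other markers. In cells of 2000 to 10000 UMIs the counts were 1103 higher and 951 lower in *Tspan12* KO and 590 higher and 1175 lower in *Ctnnb1* cKO, from 51, 24 and 273 cells. There the *Ctnnb1* cKO medians of cytokinesis and arterial genes turned to −0.25 and 0.15. With 5 CPM added, *Kif11* in *Tspan12* KO turned to 0.14 and the rule gene *Mki67* in *Ctnnb1* cKO to −0.058. The arterial median also turned to 0.037 as a mean over cells. The cause was not tested. No paired analysis was possible because each genotype had 1 library.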
